A study of Mus musculus with 2 samples.

Results

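The class 3 semaphorins are secreted guidance proteins, and the data described here are the transcripts of 6 of them (Sema3a to Sema3f) and of 4 of their receptors (Nrp1, Nrp2, Plxna2 and Plxnd1) in single cells of denervated mouse muscle. The 10 genes were taken from a fixed list of names, chosen with earlier results of these data known. Each was found once among the 32287 genes of the GFP+ library. Class 3 semaphorins bind neuropilins, co-receptors that also bind vascular endothelial growth factors, and signal through plexins, the transmembrane chains that act on small GTPases and the cytoskeleton. Sema3e differs in that it binds Plxnd1 directly, without a neuropilin. In nerve and muscle these proteins are known for repelling or steering axons and for shaping blood vessels.

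The cells came from S100GFP-tg mice (genotype S100GFPtg), labelled WT and in the study wild type for Sod1. In these mice GFP is driven by the S100B promoter, a promoter used by Schwann cells but not by them alone. The animals were males of 2 months, and the sciatic nerve had been crushed 7 days before the tibialis anterior and gastrocnemius muscles were taken and pooled. Viable GFP+ cells were sorted and made into 1 droplet library of 3′ tags; the study's methods speak of pooled animals and the series text of a single crushed mouse, so the number of animals is not certain. The library has no replicate and no uninjured counterpart here, and the cells sorted as GFP- were not analysed here. No test was therefore possible, and all intervals below cover the error of counting molecules in this library and nothing else.

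The library held 36400 barcodes and 170648616 unique molecular identifiers (UMIs, 1 for each captured transcript). Of these barcodes 8894 had at least 5000 UMIs, and 8701 of them passed the filter on genes and mitochondrial counts, with a median of 11624 UMIs. A barcode was put in a cell class when enough markers of that class were present at 2 or more UMIs each. In this way 7947 barcodes fell in exactly 1 class, while 395 that passed several gates and 359 that passed none were left out. Of the deep barcodes, 84 had a sequence also present in the GFP- library, and the ratios below moved by less than their counting intervals without them.

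The main classes were 68 Schwann-like, 35 endothelial-like, 43 smooth muscle and pericyte-like, 1246 fibroblast-like, 393 tenocyte-like, 5576 macrophage and monocyte-like, 324 dendritic-like and 236 satellite cell and myoblast-like barcodes. The sort sets these numbers, and they are not the makeup of the muscle. The lists that follow are those the gates used, so their levels describe the classes and are no check of them. All 12 Schwann markers were present in the Schwann-like class, at a summed 5875 UMIs per 1000000 UMIs of the class (CPM) against 0 to 344 CPM in the other 7 classes, and its summed macrophage markers were at 188 CPM against 24487 CPM in the macrophage-like class. All 12 endothelial markers were present in the endothelial-like class at a summed 6472 CPM, beside smooth muscle and pericyte markers at a summed 1100 CPM against 28323 CPM in their own class. The part of those mural transcripts in the endothelial values was not tested.

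The upstream sequences of Sema3c and Sema3e are shown because of where these genes were highest. Both reached their highest level among named fibroblast subtypes in the same one, as did Sema3a, Sema3b and Sema3d. Only Sema3e of the 6 ligands was highest of all in Schwann-like cells. The 250 bases before each start were taken from RefSeq (GRCm38.p6, plus strand), at chr5:17574566-17574815 for Sema3c and chr5:14025026-14025275 for Sema3e. Capitals mark GGGCGG, the GC box, or its reverse complement, searched on both strands.
Sema3c: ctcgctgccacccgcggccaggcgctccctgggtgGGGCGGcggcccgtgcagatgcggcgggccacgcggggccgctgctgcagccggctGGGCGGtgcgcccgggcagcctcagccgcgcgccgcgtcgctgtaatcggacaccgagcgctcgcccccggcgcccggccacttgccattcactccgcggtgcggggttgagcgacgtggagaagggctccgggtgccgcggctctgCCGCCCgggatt
Sema3e: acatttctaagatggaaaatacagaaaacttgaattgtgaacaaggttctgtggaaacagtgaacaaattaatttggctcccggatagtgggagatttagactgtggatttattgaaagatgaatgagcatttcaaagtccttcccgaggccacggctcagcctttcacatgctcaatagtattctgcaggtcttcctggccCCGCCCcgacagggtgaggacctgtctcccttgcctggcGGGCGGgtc
The Sema3c stretch held 3 GC boxes and 78.4% G and C, and the Sema3e stretch held 2 GC boxes and 48% G and C. Of 32851 RefSeq stretches of the same length, 32.74% held at least 1 GC box. Neither stretch held the TATA box TATAAA, found in 12.37% of all stretches, or the CCAAT box, found in 33.85%. Neither held the Sox-type motif ACAAAG, found in 16.46% of all stretches, or the AP-1 motif TGANTCA, found in 6.749%. Promoter entries were matched for 8 of the 10 genes. Upstream of Nrp2 there were 5 GC boxes, upstream of Plxna2 there were 2, and Nrp1 and Plxnd1 each had 1. Sema3a and Sema3d had none, and held the only matches of the Sox-type motif, 1 and 2 respectively. These matches describe letters and do not show that a factor binds.

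In GRCm38.p6, Sema3d (12383161 to 12588953), Sema3a (13124822 to 13603485), Sema3e (14025276 to 14256689) and Sema3c (17574816 to 17730268) follow each other on chromosome 5. No protein-coding gene lay between Sema3d and Sema3a, 3 lay between Sema3a and Sema3e, and 15 between Sema3e and Sema3c. Sema3b (107597674 to 107609241) and Sema3f (107681499 to 107710475) are 72.3 kb apart on chromosome 9. Of the receptors, Nrp2 (62703317 to 62818692) and Plxna2 (194619791 to 194816869) are both on chromosome 1 but far apart. Nrp1 (128358591 to 128505476) is on chromosome 8 and Plxnd1 (115954811 to 115995339) on chromosome 6. Levels below are CPM with a 95% Poisson interval, and because a 3′ tag count depends on each gene's own capture, they are compared between classes and not between genes.

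Among the 8 main classes the ligands were led by 4 different ones. Sema3e led in Schwann-like cells, Sema3c in fibroblast-like cells, Sema3a, Sema3b and Sema3d in tenocyte-like cells, and Sema3f in endothelial-like cells. Among the 8 classes of at least 35 barcodes, the first and second class of every ligand differed beyond counting error, which was so for 35.7% of the 18151 genes with at least 20 UMIs in these classes. That share was not matched for UMI number, and a difference passes counting error more easily with more UMIs. The ligands had from 138 (Sema3f) to 8223 (Sema3c) UMIs in all gated barcodes. The leading class was the same under each of the 11 other settings tried. Some of these could not change the smallest class. Scrublet removal and leaving out shared barcodes kept all 35 endothelial-like barcodes, and their estimate of other RNA was 0. Scrublet removal also kept all 68 Schwann-like barcodes. Macrophage and monocyte-like cells, 64.1% of the deep barcodes, held each ligand at 2.25 CPM or less.

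**Figure D1:**
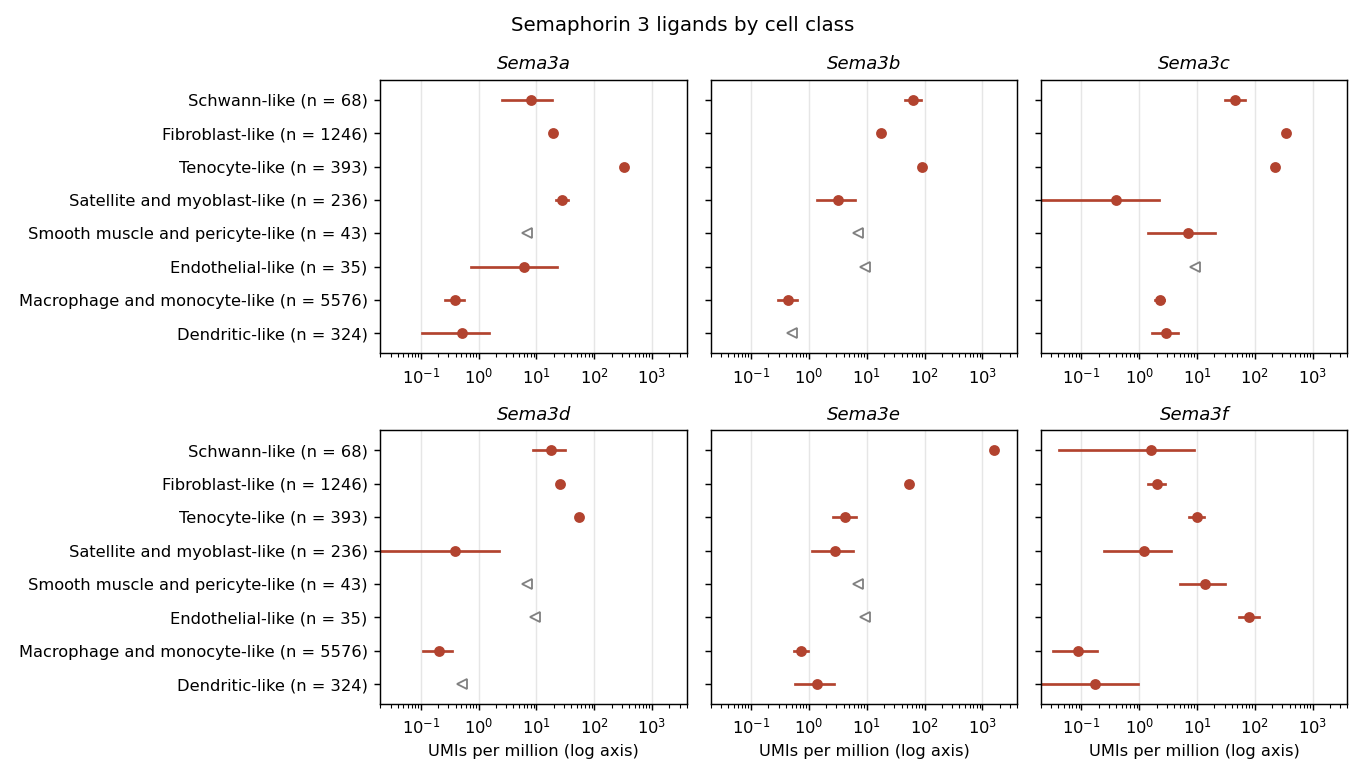
CPM of each semaphorin 3 ligand (log axis) in the 8 main cell classes, with 95% Poisson intervals; n is the number of barcodes. Open triangles mark classes with 0 UMIs, placed at the level that 3 counts would give. Sema3e stands at 1582 CPM in Schwann-like cells and Sema3a at 322 CPM in tenocyte-like cells, while macrophage and monocyte-like cells are at 2.25 CPM or lower for every ligand.

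Sema3e, the ligand of Plxnd1, reached 1582 CPM in Schwann-like cells (992 UMIs in 68 barcodes, interval 1485 to 1684). It was at 52.9 CPM in fibroblast-like cells (49.7 to 56.2) and at 4.29 CPM in tenocyte-like cells (2.65 to 6.55). Schwann-like cells thus stood far above every other class, and fibroblast-like cells far above the remaining ones. Satellite cell and myoblast-like cells held 2.78 CPM, and 6 of their 7 UMIs lay in 1 barcode. Macrophage and monocyte-like cells held 0.740 CPM and dendritic-like cells 1.36 CPM. No Sema3e UMI was found in smooth muscle and pericyte-like cells, where a floor of 3 counts is 6.94 CPM, or in endothelial-like cells, where it is 9.30 CPM. For classes at 0 UMIs this floor is given in place of the Poisson interval.

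The Sema3e signal was spread over the Schwann-like cells and was not carried by a few of them. After each barcode had been thinned at random to 5000 UMIs, 61 of 68 (89.7%, Clopper-Pearson interval 79.9 to 95.8%) held Sema3e, against 94.1% before thinning. The same share was 0.484% in macrophage and monocyte-like cells, whose median depth was 11236.5 UMIs against 8461 in Schwann-like cells. The thinned count per Schwann-like barcode ran from 0 to 36 with a median of 6 and quartiles of 3 and 13, and 42 barcodes held 5 or more. Leaving out the barcode with the most Sema3e changed the class level from 1582 to 1522 CPM.

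**Figure D2:**
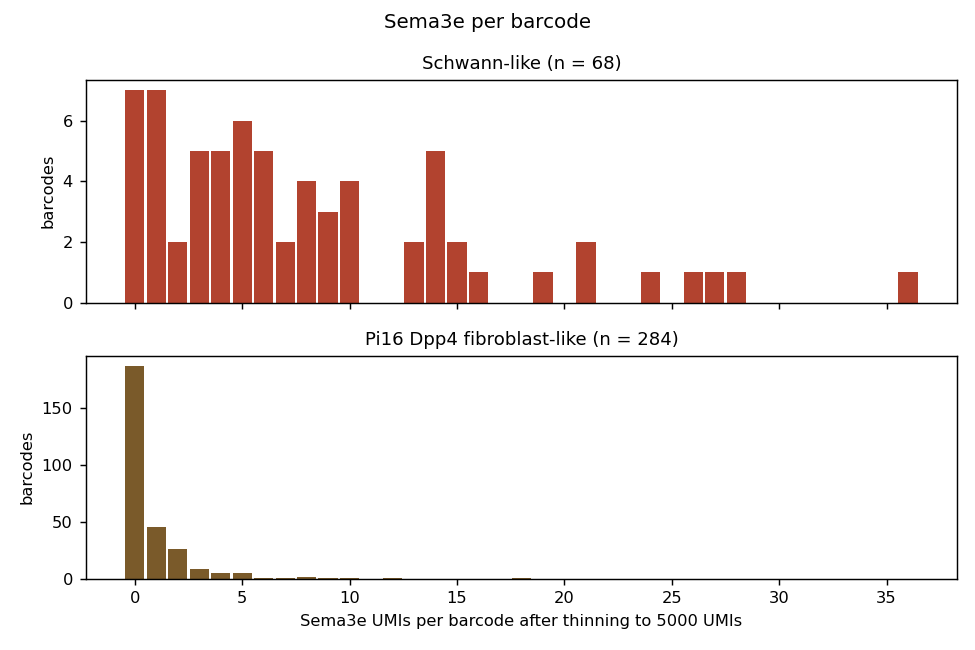
Number of barcodes (vertical axes, different scales) by Sema3e UMIs after thinning each barcode to 5000 UMIs, for 68 Schwann-like and 284 Pi16 Dpp4 fibroblast-like barcodes. Schwann-like barcodes spread from 0 to 36 with a median of 6, while 186 of the 284 fibroblast-like barcodes are at 0.

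Sema3c, which binds both neuropilins, reached 350 CPM in fibroblast-like cells (342 to 359) and 219 CPM in tenocyte-like cells (206 to 233). Schwann-like cells held 46.2 CPM (31.0 to 66.4), from 29 UMIs in 19 barcodes. The connective tissue classes were thus the high ones, with Schwann-like cells next. All other main classes were at 6.94 CPM or lower, and the 6.94 CPM of smooth muscle and pericyte-like cells came from 3 UMIs in 1 barcode. After thinning, Sema3c was found in 582 of 1246 fibroblast-like (46.7%, 62.4% unthinned) and 204 of 393 tenocyte-like barcodes (51.9%, 65.6% unthinned), against 1.17% of macrophage and monocyte-like barcodes.

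Sema3a, the classical growth cone repellent that signals through Nrp1 and A-type plexins, reached 322 CPM in tenocyte-like cells (306 to 338). Satellite cell and myoblast-like cells held 27.8 CPM (21.7 to 35.2) and fibroblast-like cells 19.4 CPM (17.5 to 21.4). Schwann-like cells held 7.97 CPM from 5 UMIs, 1 in each of 5 barcodes. Among the 8 main classes tenocyte-like cells thus stood above the next one by a log2 ratio of 3.53 (3.19 to 3.90). In fibroblast-like cells 70 of 384 Sema3a UMIs lay in a single barcode, and the level without it was 15.9 CPM. In tenocyte-like cells the richest barcode held 2.41% of the UMIs, and 176 of 393 barcodes (44.8%) held Sema3a after thinning, against 57.3% unthinned and 0.305% of thinned macrophage and monocyte-like barcodes.

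Sema3b, another neuropilin ligand, was at 90.4 CPM in tenocyte-like cells (82.2 to 99.2) and at 63.8 CPM in Schwann-like cells (45.6 to 86.9). These classes were close, with a log2 ratio of 0.50 whose interval (0.03 to 1.01) only just left out 0. Fibroblast-like cells were at 17.9 CPM (16.1 to 19.8) and satellite cell and myoblast-like cells at 3.18 CPM (1.37 to 6.27). Sema3b was found in 13 of 68 Schwann-like barcodes after thinning (19.1%, 33.8% unthinned) and in 117 of 393 tenocyte-like ones (29.8%, 54.2% unthinned), against 0.323% of macrophage and monocyte-like barcodes.

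Sema3d was at 54.1 CPM in tenocyte-like cells (47.8 to 61.0), 25.2 CPM in fibroblast-like cells (23.1 to 27.5) and 17.5 CPM in Schwann-like cells (8.76 to 31.4). The fibroblast-like and Schwann-like levels did not differ beyond counting error. Sema3f, the ligand that acts through Nrp2, had 138 UMIs in all gated barcodes. It was at 80.6 CPM in endothelial-like cells (52.6 to 118), from 26 UMIs in 15 of 35 barcodes, and at 13.9 CPM in smooth muscle and pericyte-like cells (5.09 to 30.2). Tenocyte-like cells held 9.79 CPM of Sema3f (7.22 to 13.0), which did not differ beyond counting error from the smooth muscle and pericyte-like level. Endothelial-like cells thus held the highest Sema3f level of the 8 main classes, and it was near 0 in macrophage and monocyte-like cells at 0.0870 CPM.

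Small gated classes held some of the highest levels of single members, on few barcodes. In 7 lymphatic endothelial-like barcodes Sema3a was at 352 CPM (23 UMIs, 223 to 527) and Sema3d at 382 CPM (25 UMIs, 247 to 564). The same barcodes held Sema3f at 107 CPM from 7 UMIs, and Nrp2 in all 7 at 489 CPM (335 to 690), without a single UMI of Nrp1, where the floor of 3 counts is 45.9 CPM. In 6 perineurial-like barcodes Sema3d was at 186 CPM from 15 UMIs, of which 7 lay in 1 barcode. The endothelial-like class, by comparison, held both neuropilins, Nrp1 at 446 CPM and Nrp2 at 158 CPM.

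Fibroblasts and Schwann cells are both candidate sources of semaphorins beside regrowing axons, and their levels were set against each other. Sema3e was lower in fibroblast-like than in Schwann-like cells by a log2 ratio of -4.90 (-5.03 to -4.78), and Sema3b by -1.84 (-2.31 to -1.33). Sema3c was higher by 2.92 (2.40 to 3.50), Sema3a by 1.28 (0.05 to 2.91) and Nrp1 by 4.19 (3.26 to 5.32). Plxnd1 was lower by -0.88 (-1.45 to -0.25). The intervals of Sema3d (0.52, -0.33 to 1.54), Sema3f (0.34, -2.22 to 5.68), Nrp2 (-0.63, -1.19 to 0.00) and Plxna2 (0.63, -0.12 to 1.51) included 0.

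By a change of 2-fold or more, 3 of the 10 members were higher in fibroblast-like cells, where 25.6% of 14339 genes were, and 2 were lower, where 23.1% of genes were. The median log2 ratio of the members was 0.43 and that of all genes tested -0.21. The counts of members were thus close to those over all genes and say nothing particular to the members. Among barcodes with at least 10000 UMIs, of which 21 were Schwann-like, the Sema3c ratio was 4.66, the Nrp1 ratio 3.56, the Nrp2 ratio -1.21 and the Plxnd1 ratio -1.24, the last pair then past 2-fold. The Sema3a ratio, which rests on 5 Schwann-like UMIs, was 2.38 with under 5% mitochondrial counts, and the Plxnd1 ratio was -1.05 with looser gates. The Nrp1 ratio was 3.04 with 1 more marker needed for each gate and 2.85 when barcodes in several gates were assigned to 1 class, and the Schwann-like level of Nrp1 came from 9 UMIs.

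Within the fibroblast-like class, a subtype marked by Pi16 and Dpp4, surface genes of the adventitial fibroblasts around vessels and in fascia, had the highest level of 5 of the 6 ligands among the named subtypes. Its 284 barcodes were compared with the 962 other fibroblast-like barcodes. Sema3e was at 178 against 9.46 CPM, a log2 ratio of 4.23 (3.97 to 4.50), and Sema3c at 950 against 141 CPM, a ratio of 2.75 (2.68 to 2.83). Sema3b was at 43.2 against 9.05 CPM (2.26, 1.94 to 2.58), Sema3d at 54.3 against 15.1 CPM (1.85, 1.59 to 2.11) and Sema3a at 32.3 against 14.9 CPM (1.11, 0.81 to 1.41). These 5 ligands were thus all higher in Pi16 Dpp4 cells, while Sema3f, with 4 against 36 UMIs, was lower at -1.65 (-3.60 to -0.17). The Sema3e ratio was 3.45 when barcodes in several gates were assigned to 1 class. The Sema3a ratio was 1.56 without the richest barcode, which lay among fibroblast-like barcodes of no named subtype and held 70 UMIs. After thinning, 257 of 284 Pi16 Dpp4 barcodes held Sema3c (90.5%, 98.6% unthinned) and 98 held Sema3e (34.5%, 51.8% unthinned).

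The receptors went the other way in the same comparison. Plxnd1 was at 5.47 CPM in Pi16 Dpp4 cells against 28.5 CPM in the others (log2 ratio -2.38, -2.99 to -1.83), and Nrp2 at 11.9 against 32.0 CPM (-1.43, -1.84 to -1.04). Nrp1 was at 132 against 306 CPM (-1.22, -1.34 to -1.10) and Plxna2 at 28.3 against 36.8 CPM (-0.38, -0.65 to -0.11). Of the 10 members 5 were higher by 2-fold or more, where 5.09% of 14099 genes were, and 4 were lower, where 11.6% were. Sema3a fell short of 2-fold at 0.97 among barcodes with at least 10000 UMIs and at 0.99 with looser gates, which leaves 4 higher. The members and markers were chosen with earlier results of these data known, and this comparison was added after the data were seen. The counts beside the shares of all genes therefore describe these data and are not independent of that choice. The median log2 ratio was 2.05 over the 6 ligands, -1.32 over the 4 receptors and -0.06 over all genes tested. Pi16 Dpp4 barcodes had a median of 18003 UMIs against 15638.5 in the whole class, and their summed Schwann markers, at 214 CPM, were the lowest of the 5 named subtypes. Their summed endothelial markers, at 276 CPM against 98.2 to 220 CPM, and T and NK markers, at 59.2 against 2.78 to 33.7 CPM, were the highest. An estimate put RNA of other cells at 0.772% of Pi16 Dpp4 UMIs, and with it subtracted no ratio of this comparison left its counting interval. The source of these marker transcripts was not tested.

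**Figure D3:**
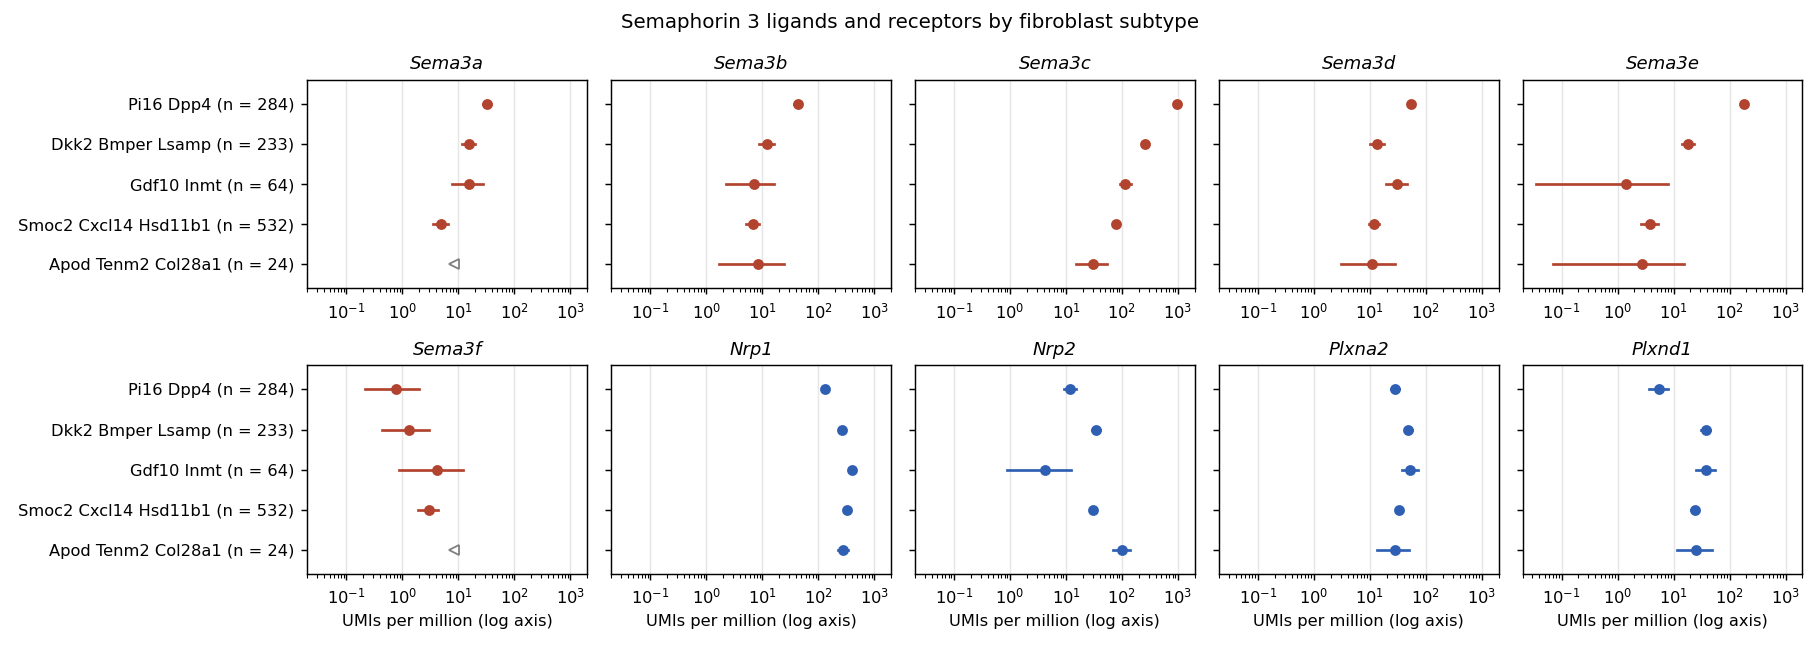
CPM (log axis) of the 6 ligands (red) and 4 receptors (blue) in 5 fibroblast-like subtypes named by their markers, with 95% Poisson intervals; n is the number of barcodes and open triangles mark 0 UMIs, at the level of 3 counts. Sema3c runs from 30.6 CPM in the Apod Tenm2 Col28a1 subtype to 950 CPM in the Pi16 Dpp4 subtype, which has the lowest Nrp1, at 132 CPM, and the lowest Plxnd1, at 5.47 CPM.

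The other subtypes were graded. Sema3c fell from 950 CPM in Pi16 Dpp4 cells to 261 CPM in the 233 Dkk2 Bmper Lsamp barcodes, 115 CPM in the 64 Gdf10 Inmt barcodes, 76.6 CPM in the 532 Smoc2 Cxcl14 Hsd11b1 barcodes and 30.6 CPM in the 24 Apod Tenm2 Col28a1 barcodes. Each of these 5 levels differed from the next beyond counting error. Sema3e was at 18.3 CPM in Dkk2 Bmper Lsamp cells and at 3.78 CPM in Smoc2 Cxcl14 Hsd11b1 cells, and at 1 UMI in each of the smallest subtypes. Sema3d was at 30.9 CPM in Gdf10 Inmt cells, second to the 54.3 CPM of Pi16 Dpp4 cells. Sema3a was at 15.4 CPM in both Gdf10 Inmt and Dkk2 Bmper Lsamp cells, and in the former 63.6% of its 11 UMIs lay in 1 barcode.

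Nrp1 was highest in Gdf10 Inmt cells at 404 CPM (359 to 453), ahead of Smoc2 Cxcl14 Hsd11b1 cells at 328 CPM (315 to 340). Nrp2 was highest in Apod Tenm2 Col28a1 cells at 100.1 CPM (70.1 to 139), on 36 UMIs. It was lowest in Gdf10 Inmt cells at 4.21 CPM on 3 UMIs, not beyond counting error from the 11.9 CPM of Pi16 Dpp4 cells. Nrp1 and Nrp2 thus had different leading subtypes. Plxnd1 in Gdf10 Inmt cells (37.9 CPM) and Dkk2 Bmper Lsamp cells (37.1 CPM) did not differ beyond counting error, nor did Plxna2 (53.3 and 48.9 CPM).

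Ligands met in the same cells. After thinning, 157 of 284 Pi16 Dpp4 barcodes (55.3%, 82.4% unthinned) held at least 2 of the 6 ligands, and 194 of 393 tenocyte-like barcodes did (49.4%, 65.9% unthinned). In Schwann-like cells the number was 30 of 68 (44.1%, 58.8% unthinned), and in macrophage and monocyte-like cells 8 of 5576 (0.143%, 0.233% unthinned). In Pi16 Dpp4 cells Sema3e was found in 95 of the 257 barcodes with Sema3c (37.0%) and in 3 of the 27 without it (11.1%). In tenocyte-like cells Sema3c was found in 69.9% of barcodes with Sema3a and in 37.3% of those without. All 12 Schwann-like barcodes with Sema3c also held Sema3e, as did 49 of the 56 without Sema3c.

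Tenocyte-like cells held the fibroblast markers at a summed 23682 CPM, near the 29046 CPM of fibroblast-like cells, but the tenocyte markers at 24775 against 448 CPM, and the classes were compared directly. Sema3a was higher in tenocyte-like cells by a log2 ratio of 4.05 (3.89 to 4.22), Sema3b by 2.34 (2.13 to 2.54), Sema3f by 2.28 (1.64 to 2.92), Nrp2 by 1.65 (1.46 to 1.84) and Sema3d by 1.10 (0.88 to 1.32). Sema3e was lower by -3.63 (-4.32 to -3.01), Nrp1 by -1.78 (-1.94 to -1.63), Plxna2 by -1.20 (-1.56 to -0.85), Plxnd1 by -0.93 (-1.35 to -0.53) and Sema3c by -0.68 (-0.77 to -0.58). Tenocyte-like cells thus had more Sema3a and less Sema3e than fibroblast-like cells as a whole. Of the 10 members 5 were higher by 2-fold or more, where 10.7% of 14823 genes were, and 3 were lower, where 15% were. Sema3d fell short of 2-fold at 0.86 with under 5% mitochondrial counts, and Plxna2 at -0.96 with stricter gates and -0.84 when barcodes in several gates were assigned to 1 class. Plxnd1 passed it at -1.20 with at least 10000 UMIs and at -1.01 with other RNA subtracted, and Sema3e was at -3.01 with several gates resolved. The median log2 ratio was 1.69 over the ligands, -1.06 over the receptors and -0.01 over all genes tested. As with Pi16 Dpp4 cells, these counts are not independent of the choice of members and markers, and the comparison was added later. Tenocyte-like barcodes also held hemoglobin and other erythroid transcripts at a summed 1088 CPM, against 47.7 CPM in fibroblast-like ones, and an estimate put RNA of other cells at 2.38% of tenocyte-like UMIs.

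**Figure D4:**
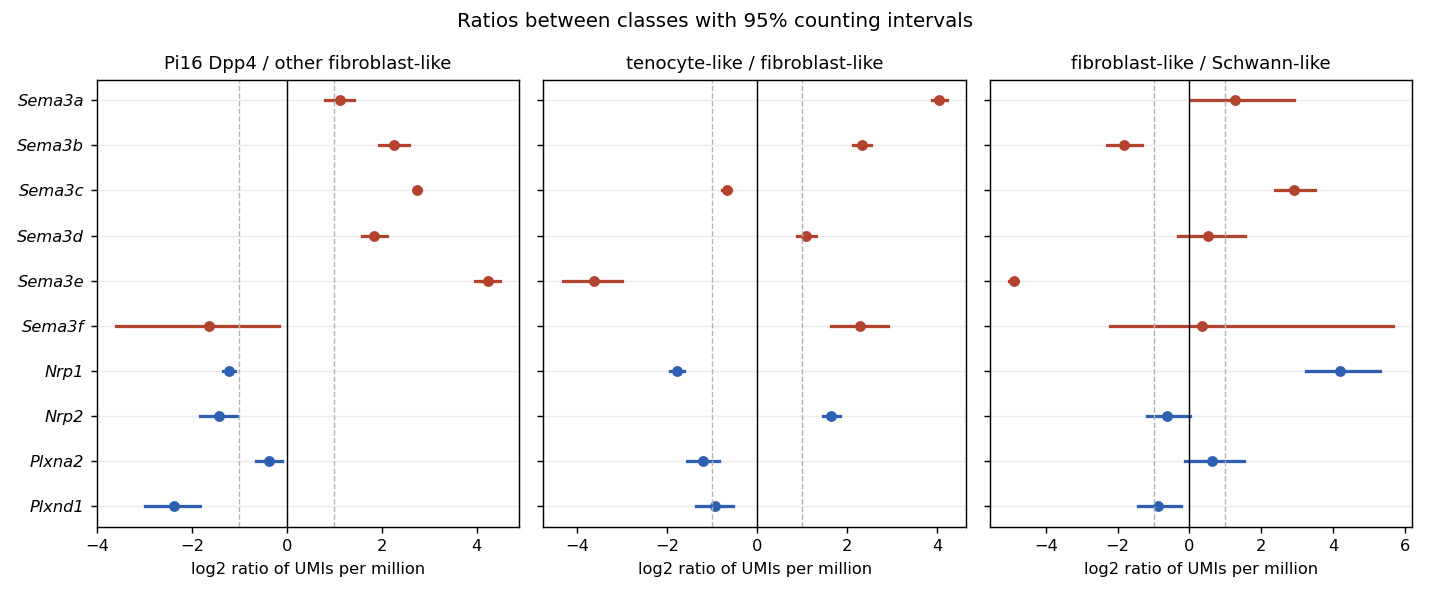
Log2 ratio of CPM for each member (points) with 95% counting intervals (lines) in 3 comparisons, ligands in red and receptors in blue; dashed lines mark a change of 2-fold. In the left panel 5 of 6 ligands lie to the right of 0 and all 4 receptors to the left; Sema3e is at 4.23 there, at -3.63 in the middle panel and at -4.90 in the right panel.

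Among the 8 main classes, all ligands except Sema3f were led by other classes than the receptors. The small lymphatic endothelial-like class, of 7 barcodes, held Sema3a, Sema3d, Sema3f and Nrp2 at higher levels still, on few UMIs. Of the 8 main classes, endothelial-like cells were highest for Nrp1, Plxna2 and Plxnd1, and macrophage and monocyte-like cells for Nrp2. Of these 8, Nrp1 was lowest in Schwann-like cells, at 14.4 CPM (9 UMIs, 6.56 to 27.2), which held Nrp2 at 41.5 CPM (26 UMIs, 27.1 to 60.8), the fifth of the 8 levels. The class with the highest Sema3e level in CPM thus held its receptor Plxnd1 at 41.5 CPM (27.1 to 60.8), not beyond counting error from the 50.1 CPM of satellite cell and myoblast-like cells.

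**Figure D5:**
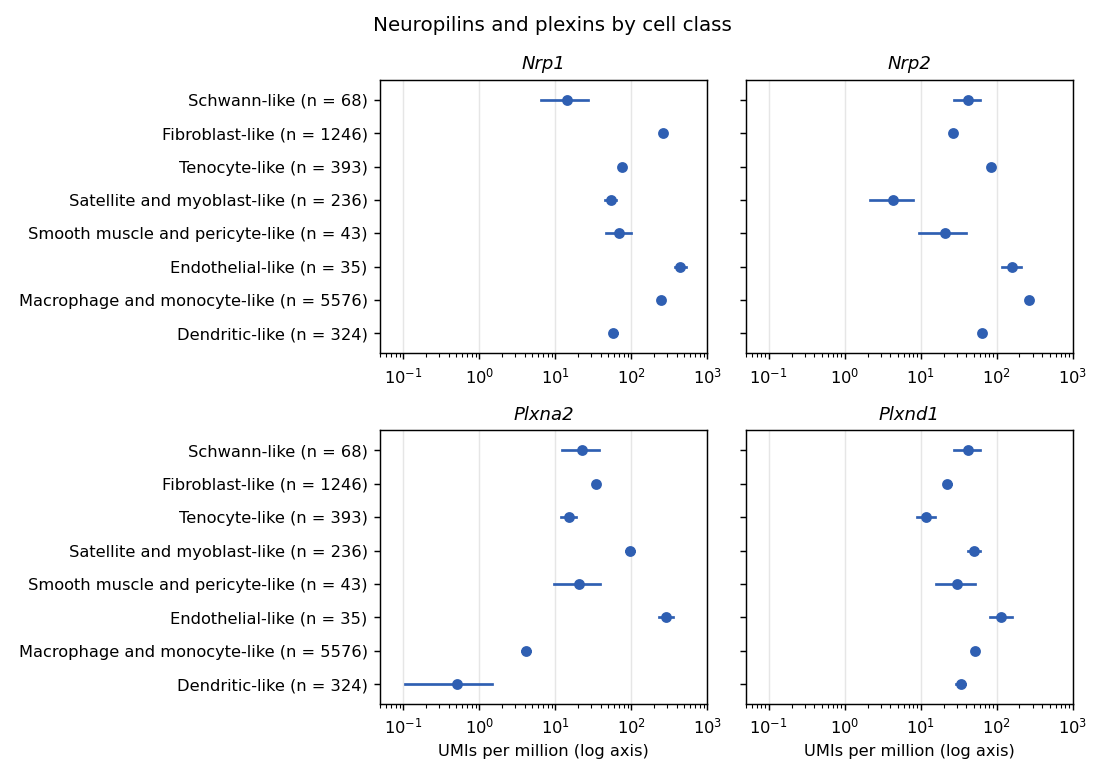
CPM of Nrp1, Nrp2, Plxna2 and Plxnd1 (log axis) in the 8 main cell classes, with 95% Poisson intervals; n is the number of barcodes. Endothelial-like cells are highest for Nrp1 (446 CPM), Plxna2 (288 CPM) and Plxnd1 (115 CPM), and macrophage and monocyte-like cells for Nrp2 (269 CPM).

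Nrp1, the co-receptor of Sema3a and of Vegfa, was at 446 CPM in endothelial-like cells (376 to 525), 261 CPM in fibroblast-like cells (254 to 268) and 249 CPM in macrophage and monocyte-like cells (245 to 253). It was at 75.9 CPM in tenocyte-like, 69.4 CPM in smooth muscle and pericyte-like, 58.4 CPM in dendritic-like and 54.1 CPM in satellite cell and myoblast-like cells. Fibroblast-like and macrophage-like levels were thus almost equal, with a log2 ratio of 0.07 (0.02 to 0.11). After thinning Nrp1 was found in 29 of 35 endothelial-like (82.9%, 94.3% unthinned), 63.9% of fibroblast-like (86.4% unthinned) and 61.9% of macrophage and monocyte-like barcodes (80.4% unthinned), against 5.88% of Schwann-like ones (8.82% unthinned).

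Nrp2, the co-receptor of Sema3f and Vegfc, was at 269 CPM in macrophage and monocyte-like cells (265 to 273), 158 CPM in endothelial-like cells (118 to 208) and 84.5 CPM in tenocyte-like cells (76.5 to 93.0). Satellite cell and myoblast-like cells were lowest at 4.37 CPM (2.18 to 7.82), with 11 UMIs in 6 barcodes. Macrophage and monocyte-like cells often held both neuropilins, in 2111 of 5576 thinned barcodes (37.9%), and so did endothelial-like cells, in 14 of 35 (40%). In fibroblast-like cells both were found in 87 of 1246 (6.98%).

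Plxna2, which also binds class 6 semaphorins, was at 288 CPM in endothelial-like cells (233 to 353), 97.4 CPM in satellite cell and myoblast-like cells (85.6 to 110) and 34.6 CPM in fibroblast-like cells (32.1 to 37.3). It was at 4.18 CPM in macrophage and monocyte-like cells and at 0.509 CPM in dendritic-like cells. Muscle precursors were thus second to endothelium for this receptor, and 84 of 236 such barcodes (35.6%, 46.6% unthinned) held it after thinning, against 1.72% of macrophage and monocyte-like ones. Plxnd1 was at 115 CPM in endothelial-like cells (80.7 to 158), 52.0 CPM in macrophage and monocyte-like cells (50.3 to 53.7) and 50.1 CPM in satellite cell and myoblast-like cells (41.7 to 59.6), the last pair not differing beyond counting error.

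Endothelial cells and macrophages, both known to carry neuropilins, were set side by side. Plxna2 was higher in endothelial-like cells by a log2 ratio of 6.11 (5.75 to 6.45), Plxnd1 by 1.14 (0.63 to 1.61) and Nrp1 by 0.84 (0.59 to 1.08), while Nrp2 was lower by -0.77 (-1.19 to -0.37). By 2-fold or more, 2 of the 4 receptors were higher, where 23.6% of 15788 genes were, and 0 were lower, where 36.6% were. The median log2 ratio of the receptors was 0.99 and that of all genes tested -0.10. The Nrp1 ratio was 1.11, past 2-fold, with barcodes of at least 3000 UMIs, of which 54 were endothelial-like, and 0.17 with barcodes of at least 10000 UMIs, of which 12 were. Without the richest barcode of each class the Plxnd1 ratio was 0.996, just short of 2-fold.

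The neuropilins also differed between macrophage subtypes. In the 1759 Lyve1 Folr2 barcodes, named by genes of resident macrophages, Nrp1 was at 339 CPM (331 to 346) and Nrp2 at 356 CPM (348 to 364). In the 2742 barcodes led by MHC class II genes Nrp1 was at 218 CPM (213 to 223) and Nrp2 at 241 CPM (236 to 247), and in the 593 Gpnmb Fabp5 barcodes at 199 and 207 CPM. The 121 Ly6c2 Chil3 barcodes, named by genes of recruited monocytes, were lowest, with Nrp1 at 67.1 CPM (53.9 to 82.5) and Nrp2 at 83.6 CPM (68.8 to 101). Both neuropilins thus had the same order of subtypes. Plxnd1 was highest in the MHC class II barcodes at 58.4 CPM (55.8 to 61.2) and lowest in the Ly6c2 Chil3 barcodes at 24.1 CPM (16.5 to 34.0).

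Among dendritic-like cells the 18 barcodes marked by Ccr7 and Fscn1, genes of mature migratory cells, held Nrp2 at 559 CPM (471 to 658), in 13 of 18 after thinning, and at 436 CPM without the richest barcode. Nrp2 was at 117 CPM (99.1 to 136) in the 86 Cd209a Flt3 barcodes and at 14.9 CPM (11.3 to 19.3) in the 195 Xcr1 Clec9a barcodes. The same Ccr7 Fscn1 barcodes held Plxnd1 at 156 CPM (112 to 213), and Nrp1 at 15.6 CPM on 4 UMIs. Nrp1 was at 59.1 CPM in Cd209a Flt3 and at 60.5 CPM in Xcr1 Clec9a barcodes.

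The rest of the pathway was read from 6 lists holding 53 genes. Of the 53 genes, 49 had at least 20 UMIs in the 8 main classes, and for 33 of the 49 the highest class stood above the next one beyond counting error, as it did for 35.7% of all genes with at least 20 UMIs. This share and those given below were again not matched for UMI number. Sema3g, the remaining class 3 member, had 7 UMIs in endothelial-like cells (21.7 CPM). Of 7 other plexins, Plxnb3 was highest in Schwann-like cells at 98.9 CPM against 3.10 CPM in the next class, Plxnb2 in macrophage and monocyte-like cells at 88.8 CPM and Plxnc1 in dendritic-like cells at 67.9 CPM. Plxna4, an A-type plexin used by Sema3a with Nrp1, was at 188 CPM in Schwann-like and 146 CPM in endothelial-like cells, a difference not beyond counting error.

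Of 13 semaphorins of other classes, most of them membrane-bound, 5 were highest in Schwann-like and 5 in endothelial-like cells, 3 of each beyond counting error. Over all 18151 genes 23% were highest in Schwann-like cells, 6.05% beyond counting error, and 15.3% in endothelial-like cells, 3.53% beyond counting error. Sema4f was at 330 CPM in Schwann-like cells (287 to 378) against 34.1 CPM in the next class, and Sema6a at 418 CPM in endothelial-like cells (351 to 495) against 236 CPM in satellite cell and myoblast-like cells, the first 2 classes for Plxna2 as well. Sema7a was at 133 CPM in endothelial-like cells and Sema5a at 129 CPM in Schwann-like cells, the latter not beyond counting error from the next class.

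Among 8 vascular endothelial growth factors and receptors, Flt1 (1813 CPM) and Kdr (381 CPM), the receptors of Vegfa, were highest in endothelial-like cells. Vegfa (109 CPM) and Vegfd (84.1 CPM) were highest in fibroblast-like cells. Of 5 cell adhesion molecules of the immunoglobulin superfamily, among them the neuropilin partner L1cam, Chl1 (633 CPM), Nrcam (542 CPM) and L1cam (142 CPM) were highest in Schwann-like cells, each beyond counting error, and Alcam (915 CPM) in dendritic-like cells. Of 19 intracellular mediators 17 had at least 20 UMIs, and 7 of these were highest in Schwann-like cells, 3 of them beyond counting error. The kinase Fyn was highest in dendritic-like cells at 580 CPM, Rras in smooth muscle and pericyte-like cells at 351 CPM and Rnd3 in satellite cell and myoblast-like cells at 289 CPM.

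The genes whose log2(CPM + 1) followed each member most closely over the 8 classes were named from 12948 genes, as a description over 8 points of 1 library that share the gates. Dok6 (Pearson r 0.98), Pcdh20 (0.98) and Epb41l4b (0.97) were nearest to Sema3e and were all highest in Schwann-like cells. Npas3 (0.99), Srm and Prr5 (both 0.96) were nearest to Sema3a and highest in tenocyte-like cells. Nearest to Sema3c were Loxl3 (0.98) and Scg3 (0.97), both highest in tenocyte-like cells, and D630033O11Rik (0.97), highest in fibroblast-like cells as Sema3c was. Nearest to Sema3b were Bcat1 (0.99), Mmp16 and Ephb3 (both 0.97), all highest in Schwann-like cells whereas Sema3b was highest in tenocyte-like cells. Nearest to Sema3d were Tenm2 (0.99), itself a subtype marker, and Spon2 (0.98), both highest in tenocyte-like cells as Sema3d was, and Mmp16 (0.98), highest in Schwann-like cells. Among the receptors, Rnf213 (0.97), Slc39a8 (0.96) and Lgals9 (0.95) were nearest to Nrp1 and Enox2 (0.98), Nat9 (0.95) and Lamtor1 (0.94) to Nrp2. Acot9 (0.97), Nfat5 and Tmem132a (both 0.96) were nearest to Plxna2, and Hspa4l (0.97), Msn (0.95) and Dido1 (0.94) to Plxnd1. Sema3f had under 200 UMIs in gated barcodes and was not compared in this way.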

How the data were processed

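Counts of UMIs per gene and barcode were deposited by the authors as a 10x matrix of barcodes that had passed Cell Ranger's cell calling (version 8.0.1 per the file headers, 7.1.0 in the submitters' processing notes, which also list mm10), not normalized. Ambient RNA and doublet corrections made in the study were left aside. Its text gives GRCm38 in one place and GRCm39 in another, and the matrix holds no coordinates, so positions came from RefSeq GRCm38.p6. A barcode was kept with at least 5000 UMIs, over 200 genes and a mitochondrial share below 10%. A marker counted at 2 or more UMIs. The number of markers needed (3 to 6 of 5 to 14) was set at the lowest point between the modes of each list's histogram, after the histograms had been seen. Subtypes needed 2 markers and the largest share of their list. The precedence was tenocyte or perineurial over fibroblast, dendritic over macrophage and lymphatic over endothelial.

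UMIs were summed over the barcodes of a class and divided by the total to give CPM. Poisson, Clopper-Pearson and conditional ratio intervals at 95% were exact and covered counting error only. With 1 library no p-value was computed. A gene needed 20 UMIs over both classes to enter a comparison. Thinning used a fixed seed and 5000 UMIs. The members, gene lists and marker lists were chosen with earlier results of these data known. All 10 members were named, and of the pathway lists up to 4 genes with the highest CPM, plus the 3 genes most like each member with 200 or more UMIs. One of these pathway genes is not reported here. The alternatives changed depth, gates, doublets (Scrublet in scanpy 1.11.5), mitochondrial filter, RNA of other cells, the CPM total and thinning. The comparisons with Pi16 Dpp4 and tenocyte-like cells, and the settings without shared or richest barcodes, were added after the data were seen. The steps were tested on simulated counts. The pass mark for the gates, 95 of 100 simulated barcodes not gated as another class, was lowered to 90 after 8 of 100 dendritic-like ones at 5000 UMIs and 6 at 10000 UMIs had entered another class, so the dendritic gate is the weakest. Python 3.11.15, numpy 2.4.6, scipy 1.17.1 and pandas 2.3.3 were used.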

Additional observations from a re-analysis of the deposited data

How the results depend on the processing

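Of the ratios in the 4 comparisons only Sema3f between fibroblast-like and Schwann-like cells changed sign, from 0.34 to -0.99 with at least 10000 UMIs, within its counting interval. The leading class of each member was the same under all of them. Of the ratios between fibroblast-like and Schwann-like or endothelial-like and macrophage-like cells, these left their counting interval: with at least 10000 UMIs, Sema3c 4.66, Sema3e -4.70, Nrp2 -1.21 and endothelial Nrp1 0.17, with at least 3000 UMIs endothelial Nrp1 1.11, with stricter gates Nrp1 3.04, with several gates resolved Sema3e -4.66, Nrp1 2.85 and endothelial Plxna2 5.67, and with another CPM total Sema3e -4.77. Of the ratios with Pi16 Dpp4 and tenocyte-like cells, 9 left their interval: with several gates resolved, Pi16 Dpp4 Sema3e 3.45 and tenocyte Nrp1 -1.58, Nrp2 1.27 and Plxna2 -0.84, with under 5% mitochondrial counts, tenocyte Sema3a 3.86, Sema3b 2.06 and Sema3d 0.86, and without the richest barcode, Sema3a 1.56 and 4.31. The cause was not tested. Sema3f gave no ratio to Schwann-like cells with under 5% mitochondrial counts or without the richest barcode, since its single UMI there was lost. RNA of other cells, estimated from 16847 barcodes under 2000 UMIs, came to at most 2.38% of a class. The estimate was the lowest over the marker lists of other classes. It was 0 for endothelial-like and for smooth muscle and pericyte-like cells, so subtraction left their levels unchanged. Scrublet removed 5015 barcodes, only 140 of them deep ones. Depth limits the 35 endothelial-like and 68 Schwann-like classes most, and simulated barcodes of 5000 UMIs often failed the satellite cell and dendritic gates, with a few dendritic ones entering another class. No paired analysis was possible because 1 library was analysed and no result came from a test.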

Other observations

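Barcodes under 5000 UMIs belonged to no gated class. In the 25740 of them that passed the other filters, Nrp1 was at 224 CPM (220 to 228), Nrp2 at 148 CPM (145 to 152), Sema3c at 103 CPM (101 to 106) and Sema3e at 27.0 CPM (25.6 to 28.5). Sema3a was at 15.3 CPM, Sema3d at 11.7 CPM, Sema3b at 8.18 CPM and Sema3f at 1.73 CPM, with Plxnd1 at 40.2 CPM and Plxna2 at 19.8 CPM. Between 58.7% (Sema3d) and 72.1% (Sema3a) of a member's UMIs in the library lay in the deep barcodes.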
